A study of Saccharomyces cerevisiae with 16 samples.

Results

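Meiotic recombination and synapsis genes were followed in haploid budding yeast that were dividing and not in meiosis. The set was chosen by name: REC104 (YHR157W), SPO11 (YHL022C), DMC1 (YER179W), RED1 (YLR263W), HOP1 (YIL072W), REC8 (YPR007C), ZIP1 (YDR285W), ZIP2 (YGL249W) and HFM1 (YGL251C), with the rows counted on the strand opposite each of them. Of the 9 genes, 8 had an ORF-T row (the transcript of an open reading frame), out of 5836 ORF-T rows and 12670 rows in all. REC8, the meiotic cohesin subunit, had no row under its systematic name, and its level was not analysed here. Antisense rows (named AS_ and the gene) were present for SPO11 and RED1, 2 of 3055 such rows in the table.

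RNA was sequenced from strand-specific libraries after removal of ribosomal RNA. The groups compared here were wild type (WT, 4 cultures), the RRP6 deletion (rrp6Δ, 3 cultures, numbered 1, 3 and 4) and the deletion of both RTR1 and RRP6 (rtr1Δ rrp6Δ, 4 cultures). The common background was BY4741, a haploid MATa laboratory strain, and cells were harvested in exponential growth without drug treatment. RRP6 encodes the nuclear exosome subunit that digests RNA from its 3′ end, and RTR1 encodes an enzyme that removes phosphate from the tail domain of RNA polymerase II. A knockout collection supplied rrp6Δ, and rtr1Δ rrp6Δ was made from it with a kanamycin cassette at RTR1. Both deletion genotypes therefore descend from a single rrp6Δ parent, and any other difference of that parent from WT cannot be told apart from the loss of Rrp6. Cultures with the same replicate number were grown on the same day, and different numbers on different days.

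In meiosis, Spo11 cuts both strands of DNA with a group of partners that includes Rec104, and the recombinase Dmc1 pairs the broken ends with the homologous chromosome. The chromosome axis is built from Red1, Hop1 and cohesin with Rec8. Zip1 forms the central part of the synaptonemal complex, and Zip2 and the helicase Hfm1, also called Mer3, belong to the ZMM proteins that promote crossovers. In vegetative cells many of these early genes are held down by Ume6, a DNA-binding protein that recruits the Rpd3 histone deacetylase to a short GC-rich element. The levels below are thus those of a meiotic programme in cells that are not running it.

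The Ume6 core element is shown first because it separates the members into a group with the letters and a group without them. The letters GGCGGC were searched on both strands (as GGCGGC or GCCGCC) in the 250 bases before the start codon, in the RefSeq R64 assembly, which has the coordinates of sacCer3. They were found in 250 of 6020 genes (4.15%), and in ZIP1, DMC1, REC104, HOP1 and REC8 with 1 match each. Matches are shown in capitals with 10 bases on either side, read along the coding strand of each gene.
ZIP1, chrIV:1032406-1032431, + strand, 20 to 15 bases before the start codon: aaataccctcGGCGGCtaaattttta
DMC1, chrV:548273-548298, + strand, 138 to 133 bases before the start codon: ccggaaaataGCCGCCcaaggataaa
REC104, chrVIII:412806-412831, + strand, 91 to 86 bases before the start codon: cacaatatttGGCGGCtattttccgc
HOP1, chrIX:226421-226446, + strand, 171 to 166 bases before the start codon: ttttaacctgGGCGGCtaaattgtac
REC8, chrXVI:571547-571572, − strand, 184 to 179 bases before the start codon: acttgacttcGGCGGCaaaccaatat
The windows of HFM1, ZIP2, SPO11 and RED1 did not hold these letters, which says nothing of whether the factor acts there. Of the 4 measured members with the letters, REC104 was higher in the deletion strains and ZIP1, DMC1 and HOP1 were lower, and of the 4 without them SPO11, ZIP2 and HFM1 were lower and RED1 overlapped with WT, as given below.

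HFM1 and DMC1 are the members with an intron, and their 5′ splice sites are shown because they differ. The first 6 bases of each intron are in capitals, with 12 bases of exon before and 12 bases of intron after them.
DMC1, chrV:548541-548570, + strand: tacacagtcaatGTATGTtataataacatt
HFM1, chrVII:31561-31590, − strand: cctctccaaataGTAGTAacgaagcttagc
GTATGT began 205 of the 312 annotated introns of the genome (65.7%), whereas GTAGTA began 1 of 312 (0.321%), that of HFM1. The DMC1 intron is 92 bases long and holds the common branch point letters TACTAAC, and the HFM1 intron is 152 bases long and does not. Splicing of HFM1 in meiosis is known to need the splicing factor Mer1, which is itself made in meiosis. Spliced and unspliced RNA were not counted separately, so the levels below include both.

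Levels are given as CPM, counts relative to the effective size of each library. Changes are log2 fold changes from a single edgeR fit of all 11 libraries, with a standard error (SE). The SE was worked out as the size of the log2 fold change divided by the square root of its quasi-likelihood F statistic. It is approximate, above all for rows with few counts. The members were chosen with their values against WT known, so these are given as a description without a test. Other genes are called higher or lower at an edgeR quasi-likelihood adjusted p of at most 0.05. Libraries held 28765694 to 38578463 counts, and 3 counts correspond to 0.0754 to 0.106 CPM, a floor that covers counting error only. RRP6 counts were 3605 to 5503 per WT library and 8 to 22 per deletion library, and RTR1 had 35 to 56 counts in rtr1Δ rrp6Δ against 417 to 762 elsewhere, so each library matched its label. The cells carried the marks of vegetative MATa cells. The 6 a-cell genes summed to 1447 to 2064 CPM per library, the 3 alpha-cell genes to 5.95 to 9.45 CPM, and 13 measured middle sporulation genes of 18 listed to 36.3 to 55.1 CPM. In RNA from whole cultures, fewer cells making a transcript and less of it per cell cannot be told apart.

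Against WT, 1 of the 8 measured members was higher in rrp6Δ and 6 were lower, with no overlap between the libraries of the groups. REC104 was the higher one, RED1 was the one whose libraries overlapped, and SPO11, DMC1, HOP1, ZIP1, ZIP2 and HFM1 were lower. The same members had the same directions in rtr1Δ rrp6Δ, a comparison that shares the WT libraries. As background, 5.16% of all ORF-T rows were higher without overlap in rrp6Δ and 43.5% were lower, and in rtr1Δ rrp6Δ these shares were 5.00% and 30.3%. By the edgeR call, 5.53% of ORF-T rows were higher and 42.5% lower in rrp6Δ, and 5.53% were higher and 34.2% lower in rtr1Δ rrp6Δ. This split depends on scaling. With scaling factors from ORF-T rows alone, 623 ORF-T rows were higher and 548 lower in rrp6Δ, compared with 323 and 2480 under the scaling used here, and 611 and 595 compared with 323 and 1996 in rtr1Δ rrp6Δ. The median log2 fold change of the members was −1.11 in rrp6Δ and −0.90 in rtr1Δ rrp6Δ, beside −0.29 and −0.22 for all ORF-T rows. Under every scaling tried, REC104 stayed above WT and the 6 lower members stayed below it, and only RED1 in rrp6Δ came out on the other side of 0.

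**Figure D1:**
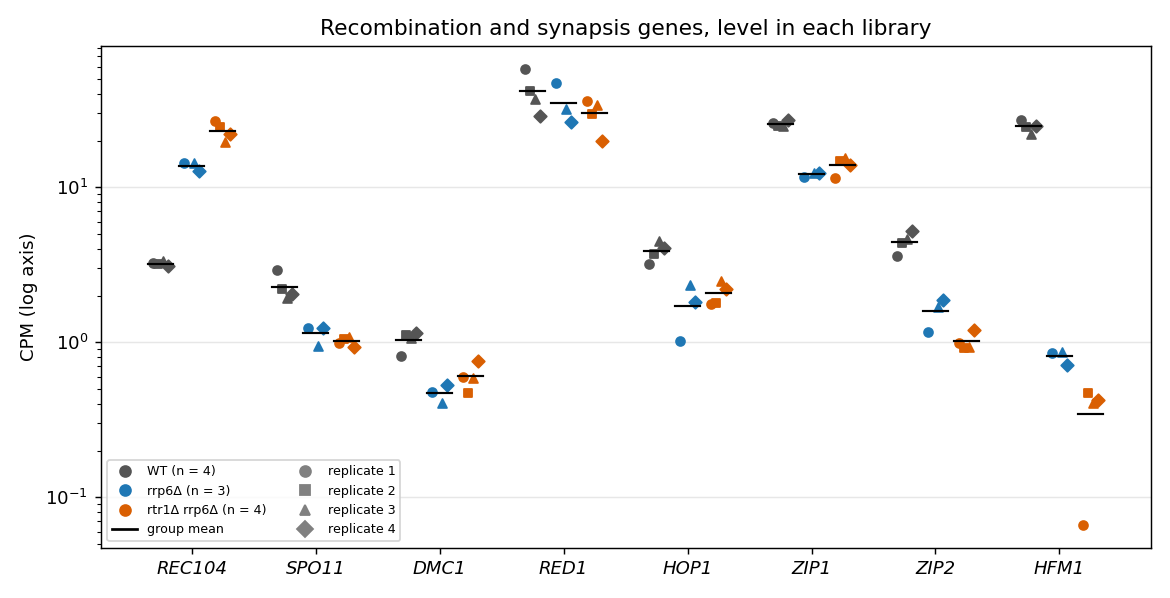
Level of each of the 8 measured genes in CPM on a log axis, with 1 point per library, colour for genotype, point shape for replicate number and a bar for the group mean. REC104 rises from 3.22 to 13.8 and 23.3 CPM (group means), HFM1 drops from 24.8 to 0.811 and 0.342 CPM, and the RED1 libraries of all 3 genotypes overlap.

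REC104 encodes a partner of Spo11 in the formation of DNA breaks, and it was the member that accumulated. Its WT libraries were at 3.25, 3.18, 3.36 and 3.09 CPM (replicates 1 to 4). The rrp6Δ libraries were at 14.3, 14.4 and 12.7 CPM (replicates 1, 3 and 4). Those of rtr1Δ rrp6Δ were at 26.9, 24.7, 19.6 and 22.0 CPM. The 3 genotypes formed 3 separate ranges, with rtr1Δ rrp6Δ highest. Of all ORF-T rows, 7.88% were higher without overlap in rtr1Δ rrp6Δ than in rrp6Δ, and 2.28% were lower. The log2 fold change of REC104 against WT was 2.10 ± 0.12 (SE, n = 3 against 4) in rrp6Δ and 2.85 ± 0.12 (SE, n = 4 against 4) in rtr1Δ rrp6Δ. In the order of all 5836 ORF-T rows by log2 fold change, REC104 was 76th from the top in rrp6Δ and 35th in rtr1Δ rrp6Δ.

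Loss of RTR1 in the absence of RRP6 was tested for the members. This difference follows from the values against WT known when they were chosen, so these tests are not independent of the choice. REC104 was higher in rtr1Δ rrp6Δ than in rrp6Δ by 0.76 ± 0.12 in log2 units (edgeR adjusted p = 0.0151), or 1.69-fold. Across all rows, 0.182% were called higher and 0.766% lower in this contrast. On the days when both genotypes were grown, the log2 difference was 0.91, 0.44 and 0.79 (replicates 1, 3 and 4). The adjusted p was 0.0011 with a replicate block. The call was lost without rrp6Δ replicate 4 (adjusted p = 0.0777), without rtr1Δ rrp6Δ replicate 2 (adjusted p = 0.0579) and with only these 2 genotypes in the fit (adjusted p = 0.0542), and over all settings the adjusted p ran from 1.2e-06 to 0.0777.

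REC104 lies at chrVIII:412907-413455 on the + strand, and the rows before it on that strand were also higher in the deletion strains. The snoRNA gene SNR71 lies at chrVIII:411228-411317 on the + strand, and LIN1, which encodes a protein that binds the cohesin subunit Irr1, lies between them at chrVIII:411384-412406 on the − strand. The row antisense to LIN1 therefore counts reads of the REC104 strand between SNR71 and REC104. SNR71 and this antisense row were picked for their position, SNR71-RT for its name, and all of them after their values were seen. Their changes against WT are therefore given as a description without a test, and their tests between the deletion genotypes are not independent of that choice. What the ending RT marks is not explained in the table, and no position of SNR71-RT was used. These rows may count the same RNA.

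The antisense row of LIN1 went from 13.7, 12.4, 12.2 and 9.53 CPM in WT to 641, 663 and 574 CPM in rrp6Δ and 918, 867, 894 and 881 CPM in rtr1Δ rrp6Δ. Like REC104, it had 3 separate ranges with rtr1Δ rrp6Δ highest. Of all rows, 5.5% were higher without overlap in rtr1Δ rrp6Δ than in rrp6Δ. The log2 fold change of the LIN1 antisense row against WT was 5.71 ± 0.14 in rrp6Δ and 6.22 ± 0.14 in rtr1Δ rrp6Δ (SE). Between the deletion genotypes it differed by 0.51 ± 0.12, which did not pass the edgeR test (adjusted p = 0.0806) but did with the replicate block (adjusted p = 0.0054), with DESeq2 (adjusted p = 0.00028) and without WT replicate 4 (adjusted p = 0.0199).

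SNR71-RT was at 9.22, 9.12, 9.91 and 7.42 CPM in WT, at 334, 352 and 298 CPM in rrp6Δ and at 512, 523, 481 and 508 CPM in rtr1Δ rrp6Δ. Against WT its log2 fold change was 5.20 ± 0.12 and 5.83 ± 0.12 (SE). Between the deletion genotypes it was higher by 0.63 ± 0.11 in rtr1Δ rrp6Δ (edgeR adjusted p = 0.0217). That call held with the replicate block (adjusted p = 0.0011) and was lost on leaving out any single library of the 2 deletion genotypes other than rtr1Δ rrp6Δ replicate 1, with adjusted p from 0.0514 to 0.113. The SNR71 row itself was at log2 fold changes of 5.64 ± 0.20 and 6.05 ± 0.20 against WT (SE), and its difference of 0.41 ± 0.18 between the deletion genotypes did not pass (edgeR adjusted p = 0.404, and 0.0734 with the replicate block).

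Per kilobase of coding length, REC104 was at 51.0 ± 6.98% of the level of the LIN1 antisense row in WT (SD, n = 4). The share was 4.11 ± 0.0549% in rrp6Δ (SD, n = 3) and 4.87 ± 0.639% in rtr1Δ rrp6Δ (SD, n = 4). In the deletion strains REC104 was thus at a small share of the level of the row before it. The antisense row covers the coding region only, whereas an ORF-T row may also count RNA beyond it, so these shares are approximate. The LIN1 mRNA on the other strand moved the opposite way, from 11.9, 12.3, 14.8 and 13.5 CPM in WT to 3.70, 4.23 and 3.65 CPM in rrp6Δ and 4.14, 4.84, 6.35 and 4.62 CPM in rtr1Δ rrp6Δ. It fell by 1.76 ± 0.16 and 1.40 ± 0.14 in log2 units (edgeR adjusted p = 9.8e-07 and 2.7e-06). KEL1, a cell fusion and morphology gene that faces REC104 from downstream, was at −0.42 ± 0.14 on the log2 scale in rrp6Δ (edgeR adjusted p = 0.0204). That call was lost with ORF-T scaling (adjusted p = 0.476), with upper-quartile scaling (adjusted p = 0.133) and without WT replicate 2 or 4 or rrp6Δ replicate 1 or 3 (adjusted p from 0.0541 to 0.0808). Whether the REC104 counts come from an RNA that starts at its own promoter was not tested, because the rows give 1 count per transcript.

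**Figure D2:**
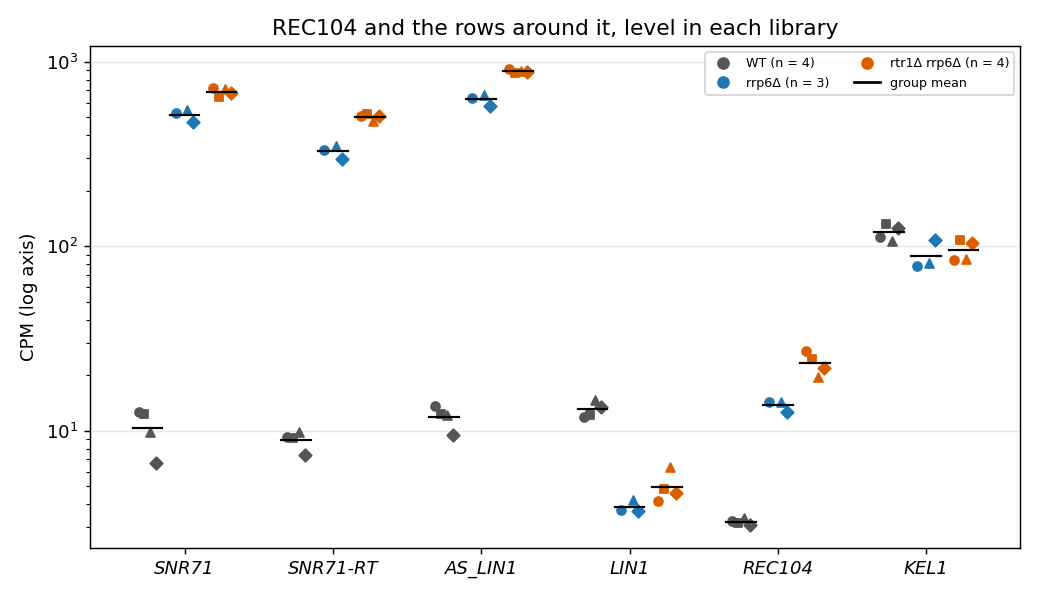
CPM on a log axis for SNR71, SNR71-RT, the row antisense to LIN1, LIN1, REC104 and KEL1, 1 point per library, with bars for group means and point shapes for replicate numbers as in the plot of all members. SNR71, SNR71-RT and the row antisense to LIN1 have, like REC104, their levels in the order WT, rrp6Δ, rtr1Δ rrp6Δ. LIN1 on the other strand is lower in both deletion genotypes.

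SPO11, which encodes the enzyme that makes the meiotic DNA breaks, was lower in both deletion strains. WT libraries were at 2.93, 2.20, 1.94 and 2.05 CPM, rrp6Δ libraries at 1.23, 0.950 and 1.24 CPM, and rtr1Δ rrp6Δ libraries at 0.994, 1.05, 1.09 and 0.929 CPM. No deletion library reached the lowest WT library, and the deletion genotypes overlapped each other. This gave a log2 fold change of −0.99 ± 0.19 in rrp6Δ and −1.16 ± 0.17 in rtr1Δ rrp6Δ (SE), and the deletion genotypes differed by −0.17 ± 0.19 (edgeR adjusted p = 0.855). These values rest on 30 to 83 counts per library.

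The strand opposite SPO11 moved the other way. AS_SPO11 was at 1.56, 0.918, 0.941 and 1.38 CPM in WT, at 6.90, 6.31 and 5.24 CPM in rrp6Δ and at 5.60, 4.97, 4.27 and 4.14 CPM in rtr1Δ rrp6Δ. Its log2 fold change against WT was 2.36 ± 0.20 and 1.98 ± 0.19 (SE), and between the deletion genotypes −0.37 ± 0.18 (edgeR adjusted p = 0.477). The authors kept antisense rows because they changed in rrp6Δ, so the rise is part of how the row came to be listed. Antisense counts made up 34.2 ± 4.50% of the counts at SPO11 in WT (SD, n = 4), 84.2 ± 3.09% in rrp6Δ (SD, n = 3) and 82.2 ± 2.19% in rtr1Δ rrp6Δ (SD, n = 4). In the deletion strains most RNA counted over SPO11 was thus antisense. Of the genes beside it, NPR3, a subunit of the complex that signals nitrogen supply to TORC1, lies downstream on the same strand and fell by 0.47 ± 0.10 in rrp6Δ (edgeR adjusted p = 0.00145).

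**Figure D3:**
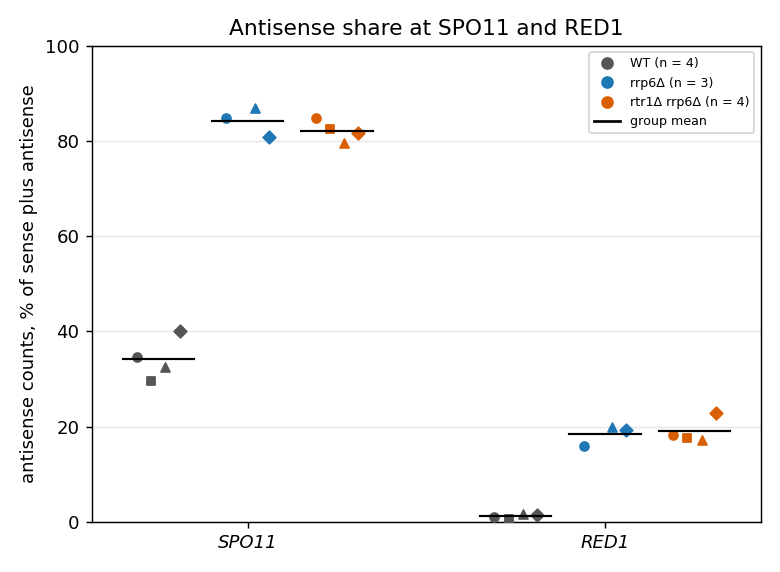
Antisense counts as a percentage of sense plus antisense counts at SPO11 and RED1, 1 point per library and a bar for the group mean. At SPO11 the share is 29.5 to 40.2% in WT and 79.7 to 86.9% in deletion libraries, and at RED1 it is 0.542 to 1.57% in WT and 15.9 to 22.9% in deletion libraries.

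DMC1, which encodes the meiotic strand exchange protein, had the lowest level of the members in WT. It was at 0.813, 1.11, 1.07 and 1.15 CPM in WT, at 0.475, 0.403 and 0.530 CPM in rrp6Δ and at 0.596, 0.471, 0.592 and 0.754 CPM in rtr1Δ rrp6Δ. All deletion libraries were below all WT libraries, on 14 to 41 counts each. In rtr1Δ rrp6Δ the margin was narrow, with the highest library at 0.754 CPM and the lowest WT library at 0.813 CPM. Its log2 fold change was −1.14 ± 0.23 in rrp6Δ and −0.78 ± 0.20 in rtr1Δ rrp6Δ (SE), and the difference of 0.36 ± 0.24 between the deletion genotypes did not pass the test (edgeR adjusted p = 0.643).

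HOP2 and MND1, whose products form a complex that helps Dmc1, moved against it. MND1 was at 1.24, 1.90, 1.63 and 0.900 CPM in WT and at 4.21 to 5.15 CPM in the 7 deletion libraries. It rose by 1.71 ± 0.20 in rrp6Δ (edgeR adjusted p = 1.1e-05) and 1.75 ± 0.19 in rtr1Δ rrp6Δ (edgeR adjusted p = 6.0e-06). HOP2 rose by 1.23 ± 0.19 (edgeR adjusted p = 0.00013) and 1.03 ± 0.18 (edgeR adjusted p = 0.00038). Like DMC1, both genes have introns in the coding region, 1 in MND1 and 2 in HOP2.

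RED1, which encodes the main protein of the meiotic chromosome axis, was the most abundant member in WT, and its libraries spread by growth day within each genotype. WT libraries were at 58.4, 42.1, 37.3 and 28.7 CPM in replicates 1 to 4. The rrp6Δ libraries were at 47.0, 31.9 and 26.3 CPM in replicates 1, 3 and 4, and the rtr1Δ rrp6Δ libraries at 36.2, 29.9, 33.9 and 20.0 CPM. In each genotype replicate 1 was highest and replicate 4 lowest, and the 3 genotypes overlapped. The log2 fold change against WT was −0.25 ± 0.27 in rrp6Δ and −0.47 ± 0.25 in rtr1Δ rrp6Δ (SE), and in rrp6Δ it became 0.06 with scaling from ORF-T rows alone. Within a day, rrp6Δ differed from WT by −0.31, −0.22 and −0.13 on the log2 scale (replicates 1, 3 and 4), and rtr1Δ rrp6Δ by −0.69, −0.49, −0.13 and −0.52 (replicates 1 to 4).

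The gene downstream of RED1 on the same strand, RPS28B, encodes a protein of the small ribosomal subunit and had the same order of days. RED1 lies at chrXII:670340-672823 and RPS28B at chrXII:673131-673334, both on the + strand. RPS28B was at 117, 96.6, 81.5 and 48.7 CPM in WT, at 97.0, 67.9 and 46.6 CPM in rrp6Δ and at 91.3, 60.7, 74.1 and 40.3 CPM in rtr1Δ rrp6Δ. Replicate 1 was again highest and replicate 4 lowest in each genotype. Over the 11 libraries the Pearson correlation of log2 CPM between RED1 and RPS28B was 0.95, the second highest among 5685 ORF-T rows, and these libraries share their growth days in sets of up to 3. RPS28B differed from WT by −0.28 ± 0.33 in rrp6Δ and did not pass the test (edgeR adjusted p = 0.468, and 0.0206 with the replicate block, where it was −0.25). TMA7, the ribosome-associated gene on the other side of RED1, did not have this order of days, with 47.9, 33.6, 48.2 and 45.0 CPM in WT.

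**Figure D4:**
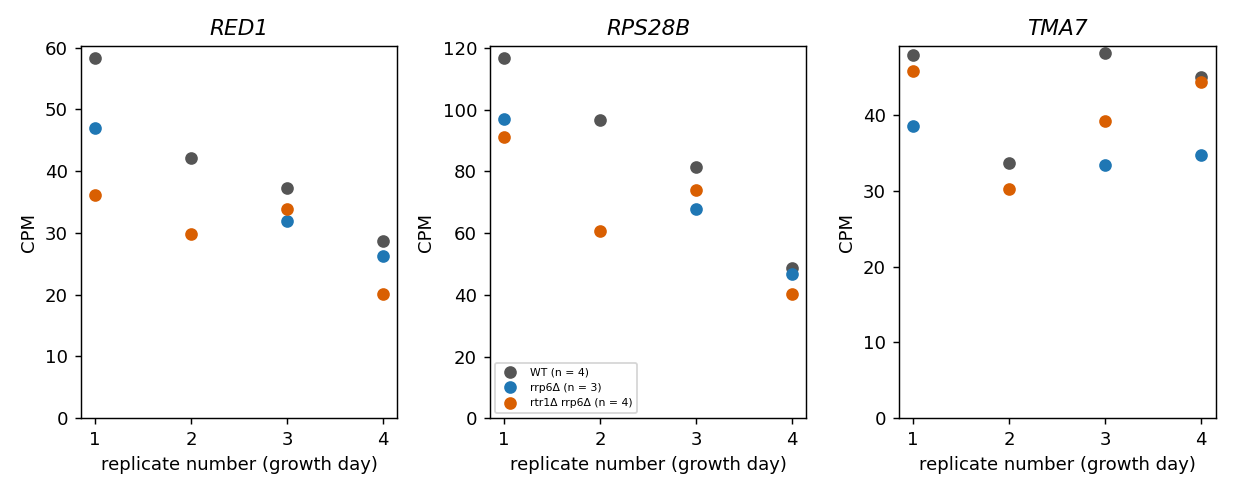
CPM of RED1, of RPS28B downstream of it and of TMA7 upstream of it against the replicate number, which marks the growth day, with 1 point per library and colour for genotype. For RED1 and RPS28B replicate 1 is highest and replicate 4 lowest in each genotype, and for TMA7 they are not.

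The strand opposite RED1 gave 7 to 19 counts per WT library and 225 to 280 per deletion library. AS_RED1 was at 0.601, 0.230, 0.596 and 0.422 CPM in WT, at 8.87, 7.89 and 6.30 CPM in rrp6Δ and at 8.12, 6.36, 7.01 and 5.95 CPM in rtr1Δ rrp6Δ. Its log2 fold change against WT was 4.05 ± 0.25 and 3.88 ± 0.24 (SE), and between the deletion genotypes −0.17 ± 0.20 (edgeR adjusted p = 0.871). The antisense share at RED1 was 1.15 ± 0.467% in WT (SD, n = 4), 18.3 ± 2.16% in rrp6Δ (SD, n = 3) and 19.0 ± 2.67% in rtr1Δ rrp6Δ (SD, n = 4). Sense RNA thus remained most of the RNA at RED1, unlike at SPO11. SPO11 and RED1 both have a downstream neighbour on their own strand, an arrangement in which 711 of 2657 genes (26.8%) had an antisense row, against 285 of 2920 genes (9.76%) whose downstream neighbour faces them. HFM1, ZIP2 and REC8 have the first arrangement and no antisense row.

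HOP1, which encodes the axis protein that recruits the checkpoint kinase Mek1, was lower in both deletion strains. It was at 3.18, 3.74, 4.49 and 4.05 CPM in WT, at 1.01, 2.33 and 1.83 CPM in rrp6Δ and at 1.76, 1.80, 2.49 and 2.21 CPM in rtr1Δ rrp6Δ. The highest deletion library stayed below the lowest WT library, and rrp6Δ replicate 1 was the lowest of all. Its log2 fold change was −1.16 ± 0.24 in rrp6Δ and −0.90 ± 0.22 in rtr1Δ rrp6Δ (SE), and the deletion genotypes differed by 0.25 ± 0.25 (edgeR adjusted p = 0.811).

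The gene that diverges from HOP1 is itself a synapsis gene. SPO22, also called ZIP4, encodes a ZMM partner of Zip2, and it fell by 0.98 ± 0.27 in rrp6Δ (edgeR adjusted p = 0.00695) and by 1.38 ± 0.25 in rtr1Δ rrp6Δ (edgeR adjusted p = 0.00044). Its libraries were at 4.98, 4.16, 3.07 and 3.66 CPM in WT, at 1.30, 2.65 and 2.04 CPM in rrp6Δ and at 1.16, 2.12, 1.25 and 1.51 CPM in rtr1Δ rrp6Δ. In both HOP1 and SPO22 the rrp6Δ library of replicate 1 was the lowest of its group, as it also was for ZIP1 and ZIP2. In WT, replicate 1 was the lowest library for HOP1 and the highest for SPO22.

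ZIP1, which encodes the transverse filament of the synaptonemal complex, was lower in both deletion strains with little spread. It was at 26.2, 25.0, 24.9 and 27.1 CPM in WT, at 11.6, 12.4 and 12.4 CPM in rrp6Δ and at 11.5, 14.8, 15.5 and 14.0 CPM in rtr1Δ rrp6Δ. The lowest WT library was well above the highest deletion library. The log2 fold change was −1.09 ± 0.11 in rrp6Δ and −0.89 ± 0.10 in rtr1Δ rrp6Δ (SE), and the difference of 0.20 ± 0.11 between them did not pass the test (edgeR adjusted p = 0.539). Beside ZIP1, the convergent gene MGP12 fell by 0.55 ± 0.10 in rrp6Δ (edgeR adjusted p = 0.00052).

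ZIP2, a ZMM gene whose product acts with Zip4 and Spo16, was lower in rrp6Δ and lower still in rtr1Δ rrp6Δ. It was at 3.61, 4.36, 4.64 and 5.20 CPM in WT, at 1.17, 1.70 and 1.88 CPM in rrp6Δ and at 0.994, 0.915, 0.934 and 1.21 CPM in rtr1Δ rrp6Δ. The deletion genotypes overlapped by a narrow margin, through replicate 1 of rrp6Δ and replicate 4 of rtr1Δ rrp6Δ. The log2 fold change against WT was −1.49 ± 0.19 and −2.13 ± 0.18 (SE). The difference of −0.65 ± 0.20 between the deletion genotypes did not pass the edgeR test (adjusted p = 0.202), and with the replicate block it did (−0.62, adjusted p = 0.0363), with log2 differences of −0.22, −0.82 and −0.62 on the shared days. A noncoding RNA, RME3, is annotated opposite ZIP2 at chrVII:33109-35013 on the − strand, and it was not analysed here.

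HFM1 had the largest change of the members, and little of its RNA was counted in the deletion strains. WT libraries were at 27.4, 24.5, 22.2 and 25.1 CPM, from 707 to 892 counts. The rrp6Δ libraries were at 0.855, 0.864 and 0.715 CPM, from 27 to 30 counts. Those of rtr1Δ rrp6Δ were at 0.0663, 0.471, 0.405 and 0.427 CPM, from 2, 18, 13 and 17 counts. Replicate 1 of rtr1Δ rrp6Δ, at 2 counts, was under the floor of 3 counts. The log2 fold change against WT was −4.93 ± 0.29 in rrp6Δ and −6.12 ± 0.28 in rtr1Δ rrp6Δ (SE). By log2 fold change HFM1 was the fifth lowest of 5836 ORF-T rows in rrp6Δ and the third lowest in rtr1Δ rrp6Δ. Per kilobase of coding length its level was 0.228 ± 0.023 CPM in rrp6Δ (SD, n = 3), where RRP6, whose gene is deleted, was at 0.146 ± 0.036 CPM (SD, n = 3).

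Between the deletion genotypes HFM1 differed by −1.19 ± 0.34 on the log2 scale. Its highest rtr1Δ rrp6Δ library was below its lowest rrp6Δ library, as in 2.28% of all ORF-T rows. The difference did not pass the edgeR test (adjusted p = 0.160), and it passed with the replicate block (adjusted p = 0.0477) and with DESeq2 (adjusted p = 0.00486), over a range of 0.00486 to 0.501 across settings. The genes on either side of HFM1 changed far less. RTG2, downstream on the same strand and known for signalling from mitochondria to the nucleus, was at −0.35 ± 0.12 in rrp6Δ (edgeR adjusted p = 0.0223), a call lost with ORF-T scaling (adjusted p = 0.750), with upper-quartile scaling (adjusted p = 0.259) and without WT replicate 2, 3 or 4 or rrp6Δ replicate 1 or 3 (adjusted p from 0.0520 to 0.0661). RMR1, which lies between HFM1 and ZIP2 and is needed for meiotic recombination, was at 3.75, 6.75, 8.37 and 8.10 CPM in WT, at 1.90, 3.63 and 4.95 CPM in rrp6Δ and at 1.56, 4.55, 3.61 and 4.87 CPM in rtr1Δ rrp6Δ. Its difference of −0.94 ± 0.40 in rrp6Δ did not pass the edgeR test (adjusted p = 0.0579), and it did with the replicate block (−0.90, adjusted p = 9.7e-05), with RLE scaling (adjusted p = 0.0359), with DESeq2 (adjusted p = 0.0146), with only these 2 genotypes in the fit (adjusted p = 0.0443) and without WT replicate 1, rrp6Δ replicate 4 or rtr1Δ rrp6Δ replicate 1 (adjusted p = 0.0241, 0.0338 and 0.0255). Replicate 1 was the lowest RMR1 library in all 3 genotypes.

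**Figure D5:**
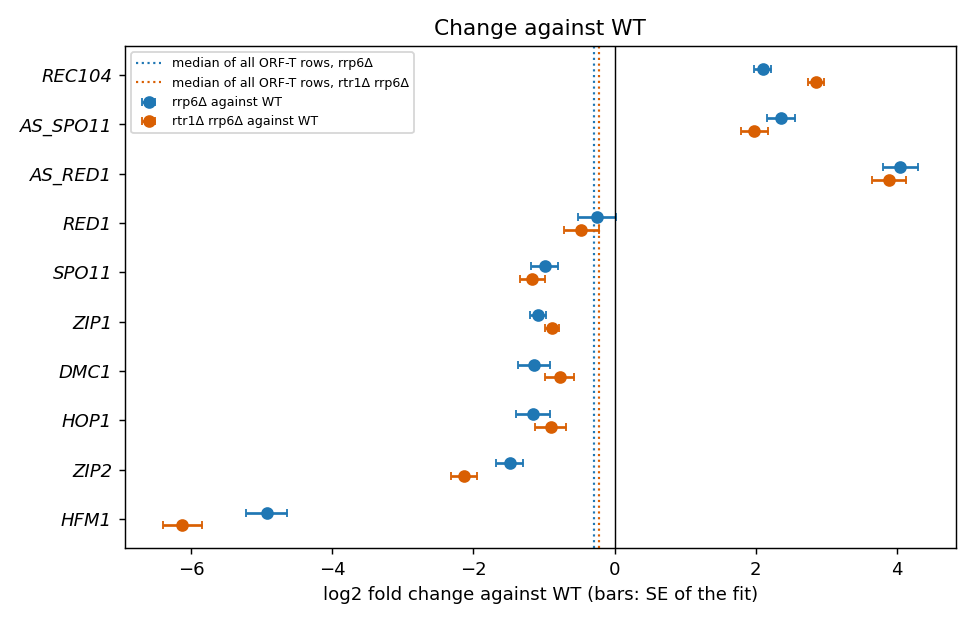
Log2 fold change against WT of the 8 genes and 2 antisense rows in rrp6Δ and in rtr1Δ rrp6Δ. Bars are the SE worked out from the F statistic, and dotted lines are the median of all ORF-T rows (−0.29 and −0.22). REC104 and both antisense rows lie to the right of 0, and HFM1 lies far to the left. RED1 lies near the median in rrp6Δ and to the left of it in rtr1Δ rrp6Δ.

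Per kilobase of coding length, the order of levels in WT was RED1, ZIP1, HFM1, REC104, HOP1, ZIP2, SPO11 and DMC1. ORF-T rows are transcripts and may count RNA outside the coding region, so levels compare between genes only roughly. Group means ran from 16.8 ± 5.02 CPM per kilobase for RED1 to 1.03 ± 0.153 for DMC1 (SD, n = 4). HOP1, ZIP2 and SPO11, at 2.13 ± 0.302, 2.11 ± 0.314 and 1.91 ± 0.373 CPM per kilobase, differed by less than their SD. In rrp6Δ REC104 was first, at 25.1 ± 1.74 CPM per kilobase (SD, n = 3), and HFM1 last, whereas in WT REC104 had been below HFM1, at 5.87 ± 0.203 against 6.96 ± 0.605 CPM per kilobase.

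The other genes of the pathway were taken from lists by role, of which 33 of 39 had a row. In rrp6Δ 2 of the 33 were called higher, HOP2 and MND1, and 21 lower, beside 5.53% and 42.5% of all ORF-T rows. Their median log2 fold change was −0.41 beside −0.29 for all ORF-T rows. In rtr1Δ rrp6Δ 2 were called higher and 25 lower, beside 5.53% and 34.2% of all ORF-T rows, with a median of −0.43 beside −0.22. When only ORF-T rows set the scaling, the counts were 4 higher and 9 lower in rrp6Δ and 3 higher and 11 lower in rtr1Δ rrp6Δ. Of all 5836 ORF-T rows, 623 were then higher and 548 lower in rrp6Δ, and 611 and 595 in rtr1Δ rrp6Δ. Between the deletion genotypes edgeR called 0 of the 33, and 1 had an unadjusted p below 0.05. The replicate block, DESeq2, upper-quartile scaling, ORF-T scaling and the fit without rtr1Δ rrp6Δ replicate 1 each called 1 lower and 0 higher. The gene was MSH4, a MutS homolog that promotes crossing over, under each of these settings, and it was chosen for naming after its values were seen. Of the synapsis and crossover genes 8 of 10 were called lower in rrp6Δ, of the axis and cohesin genes 5 of 6, and of the break formation and strand exchange genes 4 of 8 and 4 of 9, beside 42.5% of all ORF-T rows.

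Of the genes called lower with the smallest adjusted p in these lists, some are meiotic and some also work in other cells. MSH5, a meiotic MutS homologue of the ZMM group, fell by 0.73 ± 0.09 in rrp6Δ (edgeR adjusted p = 2.1e-05). SMC3, a cohesin subunit of all cell divisions, fell by 0.80 ± 0.13 (edgeR adjusted p = 0.00017), and RAD50, of the complex that processes DNA ends, by 0.70 ± 0.09 (edgeR adjusted p = 3.3e-05). REC107, which encodes the break formation protein Mer2 and carries a Mer1-dependent intron as HFM1 and SPO22 do, fell by 0.45 ± 0.11 (edgeR adjusted p = 0.00262). The fall of HFM1 was thus larger than that of either. In a list of mitotic recombination and cohesin genes, which holds some of the same genes, 9 of 15 were called lower in rrp6Δ and 0 higher. Their median was −0.49, and 11 had an unadjusted edgeR p below 0.05 in either direction. Over all ORF-T rows 42.5% were called lower in rrp6Δ and 5.53% higher, with a median of −0.29. Of 9 measured regulators of the meiotic programme 6 were called lower in rrp6Δ, with a median of −0.35, beside the same shares of all ORF-T rows. Among them were IME1, the activator of early meiotic genes, at −0.59 ± 0.19 (edgeR adjusted p = 0.0155), and IME2, a meiotic protein kinase, at −0.35 ± 0.12 (edgeR adjusted p = 0.0202). The calls of IME1 and IME2 were lost with ORF-T scaling (adjusted p = 0.214 and 0.700) and upper-quartile scaling (adjusted p = 0.0728 and 0.205), and without rrp6Δ replicate 3 (adjusted p = 0.0698 and 0.0504), and that of IME2 also without rrp6Δ replicate 1 (adjusted p = 0.0681). Of the other named genes, REC107 (adjusted p = 0.265), NPR3 (0.152) and MGP12 (0.0624) lost their calls with ORF-T scaling, and MSH5, SMC3, RAD50, SPO22, LIN1, HOP2 and MND1 kept them under every alternative.

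The genes beside the members were compared in the same fit. Of the 15 neighbours of the 8 measured members, 10 were called lower and 0 higher by edgeR in rrp6Δ, and 7 lower and 0 higher in rtr1Δ rrp6Δ, with median log2 fold changes of −0.38 and −0.33. Over all ORF-T rows 42.5% and 34.2% were called lower, with medians of −0.29 and −0.22, and the calls of KEL1, RTG2, NPR3 and MGP12 in rrp6Δ were among those lost with ORF-T scaling. LIN1 was the one that fell most. In rrp6Δ each neighbour had a log2 fold change of smaller absolute size than that of the member beside it, apart from the pair beside RED1. AIM17, upstream of SPO11, followed the growth day, at 31.6 to 65.0 CPM in the replicate 1 libraries and 170 to 254 CPM in the others. ICL2, downstream of the unmeasured REC8, fell by 0.70 ± 0.17 in rrp6Δ (edgeR adjusted p = 0.00319, and 0.0691 with ORF-T scaling), and HAA1, upstream of it, was at −0.11 ± 0.10 (edgeR adjusted p = 0.343).

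The ORF-T rows whose log2 CPM followed each member most closely over the 11 libraries are given as a description, among 5685 rows with a mean of at least 50 counts. For ZIP2 they were NPY1, GMC1 and AMD2, with Pearson r of 0.99, 0.99 and 0.99. For HFM1 they were PDR10, REV3 and GMC1, with r of 0.98, 0.98 and 0.98. GMC1, needed for meiotic progression, was the one row shared by these lists of 3. REC104 was most like YDR042C, SFT1 and YER097W (r of 0.99, 0.99 and 0.98), ZIP1 like HMF1, YMR1 and CIS1 (0.99, 0.99 and 0.99), SPO11 like NFI1, RRG7 and ALE2 (0.98, 0.98 and 0.98), HOP1 like YPT7, AIM6 and GRX5 (0.99, 0.98 and 0.98), DMC1 like TAF10, YLF2 and IMH1 (1.00, 0.98 and 0.97), and RED1 like HTL1, RPS28B and SFP1 (0.97, 0.95 and 0.94). The libraries share genotypes and growth days, so many rows reach such values.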

How the data were processed

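The deposited table gave whole-number counts per transcript that the authors made by aligning reads to sacCer3 with STAR 2.5.2b and counting with featureCounts of Subread 1.5.0. Its legend calls the counts normalized, but library totals differ, and they were analysed as raw counts. ORF-T, antisense and snoRNA rows can overlap. The authors made antisense rows by reversing the strand of coding regions and retained the ones with a change in rrp6Δ. Columns holding the authors' fold changes, p-values, sums and means were not used, and 1 per-sample column of unclear genotype was left out. Of 16 samples in 4 groups, 11 in 3 groups were used. The rtr1Δ group and spike-in RNA were not analysed here.

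Counts were fitted in R 4.3.3 with edgeR 4.0.16 over all 12670 rows. The steps were filterByExpr (0 rows removed), TMM factors, 1 quasi-likelihood fit of group means and Benjamini-Hochberg adjustment. This fit had no term for the growth day, because the study used edgeR with no stated covariate. CPM were computed from effective library sizes, and log2 CPM had a prior count of 2. Alternatives were RLE, upper-quartile and ORF-T scaling, other filters, a fold minimum of 1.5, DESeq2 1.42.0, a replicate block, fits of 2 groups and leaving out each library. The study grew all genotypes of a replicate on the same day, so the numbers were taken to pair the samples. Deviations of same-numbered libraries from their group means correlated at 0.24 to 0.83 in all 10 pairs. Those of differently numbered libraries correlated at −0.68 to 0.37. These ranges overlap through replicate 2, where WT and rtr1Δ rrp6Δ correlated at 0.24, so for replicate 2 the correlations do not set the pairing apart. Scripts were tested on simulated data. Gene names and positions of 5586 of 5836 ORF-T rows came from RefSeq R64. Tables and figures used Python 3.11.15.

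The members and gene lists were chosen with earlier results of these data known. Named were all members, their antisense rows and neighbours, list genes that were called (up to 4 per list by adjusted p in rrp6Δ against WT, some left out for space), RRP6 and RTR1, and the 3 rows most like each member. Cultures of 1 strain were grown on different days, so the spread covers days but not independent strains.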

Additional observations from a re-analysis of the deposited data

Results flagged for a closer look

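HFM1 in rtr1Δ rrp6Δ replicate 1 was at 0.0663 CPM, from 2 counts, apart from the other 3 libraries of that genotype at 0.405 to 0.471 CPM. Its gap to the nearest library was 0.837 of the range of the group, above Dixon's critical value for 4 samples. Of 20 sets of 4 libraries checked (8 genes and 2 antisense rows in WT and in rtr1Δ rrp6Δ), this was the 1 that stood out, and chance gives about 1 in 20. Replicate 1 was also the lowest library of this genotype for ZIP1 and HOP1, and the highest for REC104, RED1 and both antisense rows.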

How the results depend on the processing

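Against WT, REC104 and both antisense rows stayed higher and SPO11, DMC1, HOP1, ZIP1, ZIP2 and HFM1 stayed lower under every alternative that gave them a value. REC104 ran from 1.98 to 2.39 on the log2 scale in rrp6Δ and from 2.74 to 3.08 in rtr1Δ rrp6Δ, HFM1 from −5.05 to −4.64 and from −6.31 to −5.85, and RED1 from −0.51 to 0.06 and from −0.63 to −0.23. SPO11 and DMC1 had no value under the minimum mean of 50 counts. ORF-T scaling moved the median of all rows by 0.30 in rrp6Δ and 0.23 in rtr1Δ rrp6Δ, upper-quartile scaling by 0.18 and 0.12, and RLE scaling by −0.11 and −0.11.

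Counts of ORF-T rows called against WT depended on the setting. Those higher in rrp6Δ were 323, 623 with ORF-T scaling and 497 with the replicate block, and those lower were 2480, 742 with a fold of at least 1.5, 1033 with upper-quartile scaling, 548 with ORF-T scaling and 3976 with the replicate block. Those higher in rtr1Δ rrp6Δ were 323, 611 with ORF-T scaling and 525 with the replicate block, and those lower were 1996, 528 with a fold of at least 1.5, 3102 with RLE scaling, 1062 with upper-quartile scaling, 595 with ORF-T scaling, 3533 with the replicate block and 3254 with DESeq2. Leaving out 1 library gave 252 to 357 higher and 2101 to 3021 lower in rrp6Δ, and 288 to 347 and 1606 to 2367 in rtr1Δ rrp6Δ. For rtr1Δ rrp6Δ against rrp6Δ, 23 rows were higher and 97 lower, 560 and 681 with the replicate block, 122 and 255 with DESeq2, and 61 lower with only these 2 genotypes, and leaving out 1 library gave 4 to 24 higher and 19 to 107 lower. The number of members below WT without overlap stayed at 6 in rrp6Δ and ran from 5 to 7 in rtr1Δ rrp6Δ on leaving out 1 library, and was 5 there with upper-quartile and with ORF-T scaling. The causes of these shifts were not tested.

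Among members, the replicate block changed the calls of ZIP2 and HFM1 between the deletion genotypes and no other. Among the other genes named, the differences that it turned into calls included those of RMR1 and RPS28B against WT. Between the deletion genotypes they included those of MSH4 and of the row antisense to LIN1. DMC1, HFM1 and SPO11 in the deletion strains rest on 2 to 47 counts per library, which limits their precision.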
